A study of Mus musculus with 8 samples.

Results

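The 9 genes that handle phosphate and pyrophosphate at mineralizing surfaces were followed through osteoblasts (OBs) of newborn mouse parietal bone, and were chosen by name for their known roles from the 31053 genes listed in every library. They were the phosphatases Alpl and Phospho1, the sphingomyelinase Smpd3, the pyrophosphate producer Enpp1 and exporter Ank, the phosphate transporters Slc20a1 and Slc20a2, the endopeptidase Phex and the mineralization inhibitor Mgp. All 9 had UMIs in the OBs. With genes of low counts filtered out, Phospho1 was too low to be tested in any comparison, and Slc20a1 was too low for those made within mature osteoblasts. RNA of single cells was captured in droplets and sequenced from the 3′ end, and unique molecular identifiers (UMIs) counted each captured molecule once.

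There were 8 libraries from pups at postnatal day 4 to 5, of the strain labelled B6.129(FVB)-Col1a2tm1Mcbr/J. The 4 WT libraries (S1, S2, S5 and S6) came from wild type pups. The 4 Het libraries (S3, S4, S7 and S8) came from pups with 1 copy of the G610C mutation, which replaces a glycine of the collagen chain encoded by Col1a2 with cysteine and models the brittle bone disease osteogenesis imperfecta. The mutation was in the germline, so every cell that expresses Col1a2 carried it. A library pooled cells of several pups of 1 genotype, and S1 to S4 were made with kit version 3 and S5 to S8 with kit version 3.1, with a later release of the counting software.

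Mineral forms where phosphate is released and pyrophosphate, the main local inhibitor of crystal growth, is removed. Enpp1 makes pyrophosphate from extracellular ATP, Ank lets ATP or pyrophosphate leave the cell, and Alpl, the tissue-nonspecific alkaline phosphatase, hydrolyses pyrophosphate to phosphate. Phospho1 and Smpd3 act together on membrane lipids to free phosphate inside matrix vesicles, Slc20a1 and Slc20a2 import phosphate with sodium, Phex is best known in osteocytes, where its loss raises FGF23 and wastes phosphate, and Mgp is a vitamin K-dependent protein that keeps cartilage and arteries from calcifying.

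Libraries held 30480239 to 85162035 UMIs. OBs were 2671 of 46420 cells kept, selected by Col1a1, Runx2, Sp7 and Ibsp only, and were divided by the share of Col1a1 among the UMIs of the cell into early (eOBs, under 0.75%, 379 cells), differentiating (dOBs, 0.75% to 3.5%, 1217 cells) and mature (mOBs, over 3.5%, 1075 cells). Per library there were 22 to 95 eOBs and 42 to 299 mOBs. S1 and S2 stood apart, because 56.5% and 46.5% of their cells carried haematopoietic markers, against 3.21% to 9.75% in the 6 others, and only 2.12% and 3.15% were Col2a1-high, against 15.1% to 60.4%. S5 had the most barcodes (20175) and the lowest median depth (3762 UMIs per cell kept). Pairs of libraries shared 2 to 61 cell barcodes, at most 0.663% of the smaller library. A set of 5 OB genes that the selection did not use (Bglap, Ifitm5, Dlx5, Pth1r and Dmp1) summed to 282 to 1122 CPM in eOBs and 1691 to 18389.9 CPM in mOBs. Levels below are UMIs of a gene per 1000000 UMIs of the cell class (CPM), and the library is the replicate.

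The genes lie on several chromosomes of the mouse build GRCm38 (annotation GENCODE M21). Alpl spans chr4:137741733-137796384, Phospho1 chr11:95824499-95832140, Enpp1 chr10:24637914-24712159, Ank chr15:27466677-27594909 and Slc20a1 chr2:129198764-129211616. Slc20a2 and Smpd3 both lie on chromosome 8, at chr8:22476788-22569612 and chr8:106252548-106337988, while Phex spans chrX:157162075-157415312 and Mgp chr6:136872435-136875823. Promoter windows of RefSeq (build GRCm38.p6), from 250 bases before to 50 bases after the annotated start, were found for 6 of the 9 genes (8 windows). Those of Enpp1 (chr10:24712110-24712409, minus strand), Ank (chr15:27466427-27466726, plus strand) and Phex (chrX:157415237-157415536, minus strand) are printed because these 3 genes were the ones that rose with Dmp1 among mOBs. Letters run 5′ to 3′ in the direction of the gene, and capitals mark the RUNX core ACCACA or its reverse complement TGTGGT.
Enpp1: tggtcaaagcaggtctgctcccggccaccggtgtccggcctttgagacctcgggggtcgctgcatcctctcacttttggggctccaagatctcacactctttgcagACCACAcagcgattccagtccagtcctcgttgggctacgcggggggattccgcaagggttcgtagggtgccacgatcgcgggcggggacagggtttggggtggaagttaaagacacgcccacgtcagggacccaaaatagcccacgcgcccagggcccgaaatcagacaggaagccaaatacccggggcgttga
Ank: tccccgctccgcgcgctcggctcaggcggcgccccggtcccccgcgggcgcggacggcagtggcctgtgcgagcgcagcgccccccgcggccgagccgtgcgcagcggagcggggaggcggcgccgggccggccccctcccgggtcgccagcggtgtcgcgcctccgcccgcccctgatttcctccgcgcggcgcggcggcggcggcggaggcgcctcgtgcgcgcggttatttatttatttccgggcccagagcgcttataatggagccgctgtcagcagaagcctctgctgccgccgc
Phex: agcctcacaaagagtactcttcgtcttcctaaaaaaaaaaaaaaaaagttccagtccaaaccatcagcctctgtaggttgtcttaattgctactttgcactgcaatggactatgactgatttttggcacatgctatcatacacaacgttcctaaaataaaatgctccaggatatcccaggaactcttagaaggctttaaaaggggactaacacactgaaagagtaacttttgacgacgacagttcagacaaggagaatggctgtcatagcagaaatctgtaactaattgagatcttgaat
The 3 windows differed in base composition, with 61.7% G or C in Enpp1, 78% in Ank and 38.7% in Phex, against a median of 52.7% over all 32851 windows. The RUNX core was in 2 of the 8 member windows, that of Enpp1 (starting 144 bases before the start) and 1 of 2 windows of Slc20a1 (77 bases before), and in 16.8% of all windows. A second motif searched on both strands, TTGCATCA, which overlapped no RUNX core here, was in 0 of the 8 windows and in 0.895% of all windows. A match describes letters and was not tested for binding. Slc20a2, Smpd3 and Mgp had no window in the table.

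The first question was how these genes follow OB maturation, since the stages were set by Col1a1 alone. Smpd3 and Phex rose steeply from eOBs to mOBs, Slc20a2 and Mgp fell, and Alpl was high throughout. Of the 8 genes tested, 3 were higher and 3 lower in mOBs than in eOBs, and 4 were higher and 1 lower in mOBs than in dOBs, where 28.0% and 31.3% of all genes tested passed (edgeR quasi-likelihood test, Benjamini-Hochberg adjusted p under 0.05). The median log2 fold change of the tested genes was 0.50 from eOBs to mOBs and 0.39 from dOBs to mOBs, beside -0.027 and -0.028 over all genes. Fold changes were scaled by TMM and CPM were not, so that the 2 can differ where collagen takes a large part of the UMIs of mOBs.

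**Figure D1:**
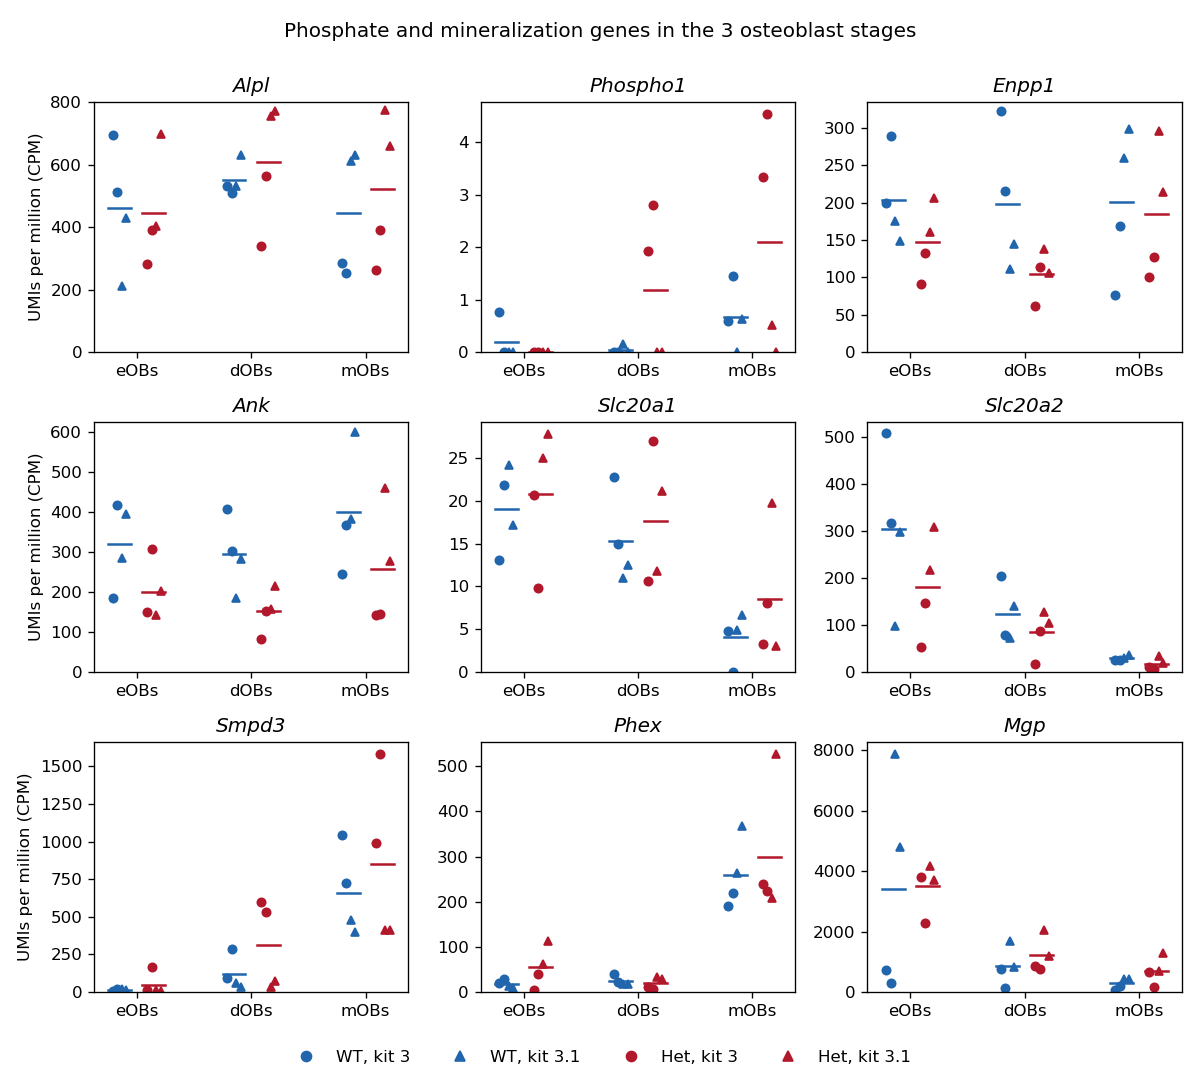
CPM (vertical axes) of the 9 genes in eOBs, dOBs and mOBs, with 1 point a library (circles, kit version 3; triangles, kit version 3.1; blue, WT; red, Het) and a bar at the mean of 4 libraries. Smpd3 and Phex are highest in mOBs, where Phex lies between 189.6 and 528 CPM, and Slc20a2 and Mgp decline from eOBs to mOBs.

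Smpd3, the neutral sphingomyelinase whose loss leaves bone poorly mineralized, had the lowest, median and highest library at 8.36, 15.7 and 167 CPM in eOBs, 34.5, 84.03 and 600.1 CPM in dOBs and 397, 601 and 1584 CPM in mOBs. It was higher in mOBs than in eOBs in 8 of 8 libraries (5.37 on the log2 scale, SE 0.34, adjusted p = 3.28e-07), and the libraries of the 2 stages did not overlap. It was higher in dOBs than in eOBs in 8 of 8 libraries and reached 286, 600.1 and 533 CPM in S2, S3 and S4, while the dOBs of S1 and S5 to S8 stayed between 34.5 and 93.5 CPM. The mOBs exceeded the dOBs in 8 of 8 libraries as well, though the stages overlapped (2.796 on the log2 scale, SE 0.31, adjusted p = 2.41e-05). In mOBs the kits did not overlap, with 726 to 1584 CPM with kit version 3 and 397 to 477 CPM with kit version 3.1. After each cell with at least 2000 UMIs was thinned to that number, a UMI of Smpd3 was found in 47.4% of mOBs and 3.99% of eOBs (mean of 8 libraries), beside 1.27% of haematopoietic-like cells. The unthinned shares were 65.3%, 13.05% and 5.65%, at library median depths of 12348 to 21116 UMIs in mOBs, 6571 to 15054 in eOBs and 3223 to 16264.5 in haematopoietic-like cells. Cells with fewer than 2000 UMIs were left out of every thinned value, 10 of 1075 mOBs, 77 of 1217 dOBs, 3 of 379 eOBs and 903 of 6810 haematopoietic-like cells.

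Phex, the endopeptidase mutated in X-linked hypophosphatemia, changed late. Its lowest, median and highest libraries were 4.14, 24.04 and 114 CPM in eOBs, 6.52, 21.2 and 39.8 CPM in dOBs and 189.6, 231 and 528 CPM in mOBs. The mOBs were above the dOBs of the same library in 8 of 8 cases, with no overlap between the stages (3.97 on the log2 scale, SE 0.25, adjusted p = 2.93e-07), and they were above the eOBs likewise in 8 of 8 libraries (3.62 on the log2 scale, SE 0.35, adjusted p = 8.44e-06). Within the OBs of WT libraries, Phex was 37.99 ± 6.62 CPM where Col1a1 took 3.5% to 7% of UMIs and 492 ± 298 CPM where it took more than 7% (SD, n = 4), and the Het libraries gave 112 ± 88.9 and 624 ± 244 CPM. Thinned cells had a Phex UMI in 19.3% of mOBs, 2.94% of dOBs and 0.0725% of haematopoietic-like cells (unthinned 47.1%, 12.5% and 1.104%).

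**Figure D2:**
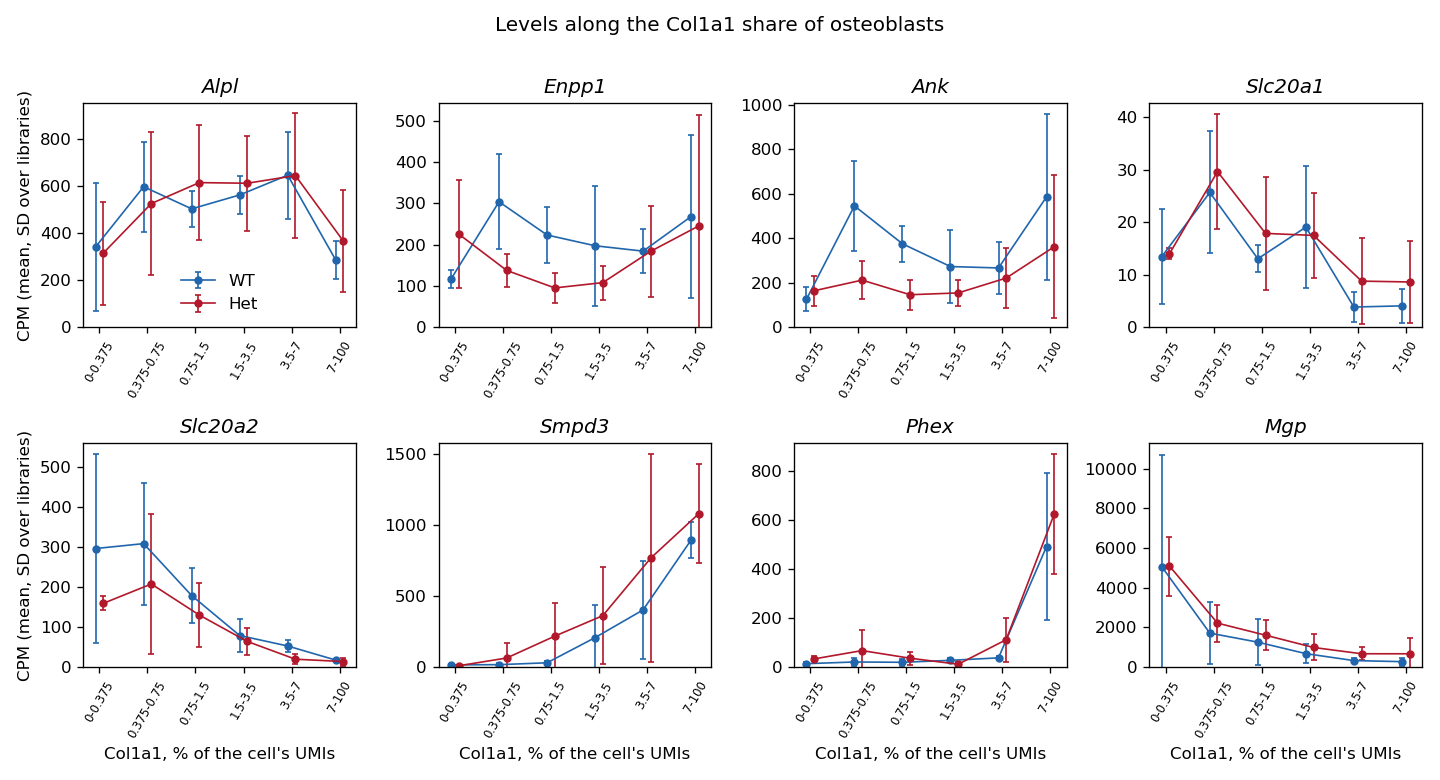
Mean CPM (vertical axes; bars, SD over libraries) of 8 genes in OBs ordered by the share of Col1a1 among the UMIs of the cell (horizontal axes, %), for WT (blue, n = 4) and Het (red, n = 4, and 2 in the lowest bin, since bins with under 10 cells were left out). Phex rises in the last bin, from 37.99 ± 6.62 to 492 ± 298 CPM in WT, and mean Ank was 125 ± 53.8 CPM in WT and 164 ± 67.7 CPM in Het in the lowest bin and higher in WT than in Het in the other 5 bins, with 546 ± 201 and 212 ± 86.9 CPM in the second.

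The phosphatases differed from these. Alpl, which marks the whole OB lineage, had its lowest, median and highest libraries at 211, 418 and 699 CPM in eOBs, 339, 549 and 771 CPM in dOBs and 252, 502 and 775 CPM in mOBs, and the stages overlapped. Its change from eOBs to mOBs did not pass the test (0.50 on the log2 scale, SE 0.24, adjusted p = 0.154), nor did that from dOBs to mOBs (log2 fold change 0.014, SE 0.11), which passed under looser OB selection (0.33). Leaving out S1 made the first pass (log2 fold change 0.68, edgeR adjusted p = 0.04504), as did leaving out S1 and S2 together (log2 fold change 0.88, edgeR adjusted p = 0.00637), looser OB selection and no filter on low counts, and 18 of 22 alternatives did not pass. By CPM, Alpl was higher in mOBs than in eOBs in 0 of 4 kit version 3 libraries and 3 of 4 kit version 3.1 libraries. The kits lay apart in mOBs, where Alpl was 252 to 391 CPM with kit version 3 and 613 to 775 CPM with kit version 3.1, the opposite order to Smpd3. Phospho1, which frees phosphate from phosphocholine and phosphoethanolamine in matrix vesicles, was barely detected. It had 25 UMIs in all 1075 mOBs, 6 in the 1217 dOBs and 1 in the 379 eOBs, or 1.299 CPM over the summed mOBs. Of the 25 UMIs in mOBs, 13 were in S4 and 5 in S3, both Het, and without S4 the level was 0.732 CPM. With no filter on low counts, Phospho1 passed in OBs against all other cells (32 and 8 UMIs, log2 fold change 4.57, edgeR adjusted p = 1.19e-04) and against Col2a1-high cells (1 UMI), and in none of the other comparisons. The 0 UMIs in endothelial-like cells allow up to 0.129 CPM by 3 counts over the class, for counting error only.

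Enpp1 and Ank, which raise extracellular pyrophosphate, moved less with stage. Ank had 143, 244 and 417 CPM (lowest, median and highest library) in eOBs, 82.7, 201 and 407 CPM in dOBs and 143, 323 and 600.3 CPM in mOBs, with overlap between all stages. It passed the test in mOBs against dOBs (0.91 on the log2 scale, SE 0.17, adjusted p = 0.00147) and against eOBs (0.73 on the log2 scale, SE 0.21, adjusted p = 0.0211). By CPM, Ank in mOBs exceeded that in dOBs in 2 of 4 kit version 3 and 4 of 4 kit version 3.1 libraries, and that in eOBs in 1 of 4 and 4 of 4. Its call against eOBs was lost under 6 of 22 alternatives: without S6 (adjusted p = 0.0517), in cells thinned to 2000 UMIs (adjusted p = 0.307), under 5% mitochondrial UMIs, and with OBs left out that had markers of other cells, high Col2a1 or the deepest 5% of UMI totals. The call against dOBs was lost in thinned cells (adjusted p = 0.0868) and kept under the other alternatives. Enpp1 had 91.1, 167 and 289.7 CPM in eOBs, 61.6, 126 and 322 CPM in dOBs and 76.2, 191 and 299 CPM in mOBs. It passed against dOBs (0.77 on the log2 scale, SE 0.27, adjusted p = 0.0465) and not against eOBs (0.50 on the log2 scale, SE 0.22, adjusted p = 0.108). By CPM, Enpp1 in mOBs exceeded that in dOBs in 2 of 4 kit version 3 and 4 of 4 kit version 3.1 libraries, and that in eOBs in 1 of 4 and 4 of 4. The dOB call was lost under 12 of 22 alternatives: without any 1 of S3 to S8, with adjusted p from 0.0736 without S4 to 0.1298 without S6, in thinned cells, under 5% mitochondrial UMIs, stricter OB selection or other Col1a1 limits, and with OBs left out that had markers of other cells or were among the deepest 5%. The eOB comparison passed under 4 of 22: with S1 and S2 left out together, looser OB selection, no filter on low counts, and without S1 (log2 fold change 0.70, edgeR adjusted p = 0.0127).

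Of the phosphate transporters, Slc20a2 (PiT-2) was an early gene. Its lowest, median and highest libraries were 53.8, 257 and 507 CPM in eOBs, 17.3, 96.5 and 204 CPM in dOBs and 7.0, 24.9 and 36.8 CPM in mOBs, and it was lower in mOBs than in eOBs of the same library in 8 of 8 cases, with no overlap (-2.799 on the log2 scale, SE 0.26, adjusted p = 4.86e-06). After thinning, 30.5% of eOBs and 5.27% of mOBs had a Slc20a2 UMI, beside 3.99% of haematopoietic-like cells (unthinned 63.4%, 24.3% and 17.3%), so that the level in mOBs was near that of cells of another lineage. Slc20a1 (PiT-1) was low throughout, with 9.798, 21.2 and 27.9 CPM in eOBs and 0, 4.87 and 19.8 CPM in mOBs, and was lower in mOBs than in eOBs in 8 of 8 libraries (-1.25 on the log2 scale, SE 0.38, adjusted p = 0.0276). That call was lost without S3, S5 or S8 (adjusted p = 0.053, 0.0847 and 0.0581) and under looser or stricter OB selection, 5 of 18 alternatives. The 8 endothelial markers summed to 24.9 to 1501 CPM in eOBs and 3.01 to 32.6 CPM in mOBs, and their part in the Slc20a1 difference was not tested. From dOBs to mOBs, Slc20a2 fell (-1.73 on the log2 scale, SE 0.20, adjusted p = 4.08e-05) and Slc20a1 did not pass (-0.82 on the log2 scale, SE 0.33, adjusted p = 0.0709), though it did without S7 (adjusted p = 0.00336), under DESeq2, with no filter on low counts and under 5% mitochondrial UMIs. In thinned cells neither was tested.

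Mgp, the vitamin K-dependent inhibitor, fell with maturation. Its lowest, median and highest libraries were 299, 3765 and 7897 CPM in eOBs, 148, 844 and 2044 CPM in dOBs and 69.6, 434 and 1291 CPM in mOBs, and mOBs were lower than eOBs in 8 of 8 libraries, though the stages overlapped (-2.37 on the log2 scale, SE 0.37, adjusted p = 3.91e-04). The difference from dOBs did not pass (-0.90 on the log2 scale, SE 0.35, adjusted p = 0.06704), but it did without S2 or S8 (adjusted p = 0.0246 and 0.0409) or without S1 and S2 together (adjusted p = 0.0402), and under 5 other of the 22 alternatives (no filter, thinned cells, looser OB selection, and OBs of high Col2a1 or the deepest 5% left out). The 7 cartilage markers summed to 125 to 10306 CPM in eOBs and 28.8 to 921 CPM in mOBs, but in S2 they rose from 125 to 174 CPM. The eOBs of S1 and S2, the libraries poorest in Col2a1-high cells, had the lowest Mgp (726 and 299 CPM). With OBs of high Col2a1 left out, the change of Mgp from eOBs to mOBs was -2.07 (SE 0.23, edgeR adjusted p = 1.13e-05). The 8 pericyte or smooth muscle markers summed to 421 to 2489 CPM in eOBs and 75.6 to 453 CPM in mOBs, and their part in the Mgp fall was not tested. In mOBs, Mgp exceeded its level in haematopoietic-like cells in 3 of 8 libraries, and the mean was 496 ± 394 CPM (SD, n = 8) against 551 ± 404 CPM (SD, n = 8). A UMI was found in 41.1% of thinned mOBs and 37.5% of thinned haematopoietic-like cells (unthinned 79.1% and 66.1%), so that Mgp in mOBs was near its level in cells of another lineage. Free RNA was not measured, and its part in either level is not known.

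Within mOBs, cells were further divided by Dmp1, a matrix protein of osteocytes and late OBs that is not among the 9 genes, into 295 cells with at least 2 Dmp1 UMIs and 693 with 0. The first held 19.2% of mOBs in S6 (95% exact Clopper-Pearson interval 14.1% to 25.3%, counting error only) up to 49.4% in S2 (37.8% to 61%). Ank, Enpp1 and Phex were higher in the cells with Dmp1 and Alpl was lower, so that 4 of the 7 genes tested passed, where 10.6% of all genes did. Their median log2 fold change was 0.53, beside -0.00349 over all genes. Median depth per library was 12716 to 29599 UMIs in cells with Dmp1 and 12015 to 20351.5 in cells without, and with cells thinned to 2000 UMIs, which left out 0 of 295 and 9 of 693, the log2 fold changes were 3.08 for Ank, 3.24 for Enpp1, 3.85 for Phex and -0.77 for Alpl. The 11 haematopoietic markers, of which Cd3e was at 0 in both kinds of mOB and Cd33 in those without Dmp1, summed to 138 CPM without and 1027 CPM with Dmp1 in S1 and to 238 and 713 CPM in S2. In the 6 others they ran from 2.46 to 203 CPM without and from 0 to 145 CPM with it, higher with Dmp1 in S5 alone. Without S1 and S2 the log2 fold changes were 3.504 for Ank, 3.202 for Enpp1, 3.802 for Phex and -0.95 for Alpl, and the same 4 genes passed, where 11.4% of all genes did. The 7 fibroblast markers were lower with Dmp1 in 8 of 8 libraries, at 10.1 to 53.4 CPM with and 30.7 to 134 CPM without it, and their part in the differences was not tested.

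Phex had its lowest, median and highest libraries at 40.1, 64.8 and 182 CPM without Dmp1 and 283, 662 and 1386 CPM with it, was higher with Dmp1 in 8 of 8 libraries and did not overlap (3.36 on the log2 scale, SE 0.34, adjusted p = 4.48e-05). Ank stood at 41.1, 107 and 231 CPM without Dmp1 and 261, 609.99 and 1959 CPM with it, likewise in 8 of 8 libraries without overlap (2.84 on the log2 scale, SE 0.41, adjusted p = 5.55e-04). Enpp1 stood at 33.1, 73.8 and 92.8 CPM without Dmp1 and 75.03, 380.1 and 1185 CPM with it and was higher in 7 of 8 libraries, the exception being S1 (78.4 and 75.03 CPM; 2.78 on the log2 scale, SE 0.33, adjusted p = 1.42e-04). In the cells with Dmp1, Ank was 261 to 458 CPM with kit version 3 and 762 to 1959 CPM with kit version 3.1, and the kits did not overlap. A difference between the kits was not tested. These 3 are the genes whose promoter windows are printed above.

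Alpl had 267, 611 and 896 CPM without Dmp1 and 178, 261 and 501 CPM with it, and was lower with Dmp1 in 8 of 8 libraries although the groups overlapped (-0.82 on the log2 scale, SE 0.14, adjusted p = 0.00155). Smpd3 did not pass (0.53 on the log2 scale, SE 0.36, adjusted p = 0.42), and the kits went in opposite directions: it was lower with Dmp1 in 4 of 4 kit version 3 libraries (S3 from 1328 to 468 CPM) and higher in 4 of 4 kit version 3.1 libraries (S7 from 206 to 848 CPM). Slc20a2 and Mgp did not pass (log2 fold changes -0.33 and 0.11, SE 0.25 and 0.55). Phospho1 had 16 UMIs in the 295 cells with Dmp1 and 9 in the 693 cells without it, and with the filter on low counts it and Slc20a1 were too low to be tested. With no filter neither passed (log2 fold changes 1.28 and 0.97, SE 0.90 and 0.36, edgeR adjusted p = 0.635 and 0.0781), while Smpd3 did (log2 fold change 0.51, edgeR adjusted p = 2.98e-04), where 7.84% of all genes passed.

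**Figure D3:**
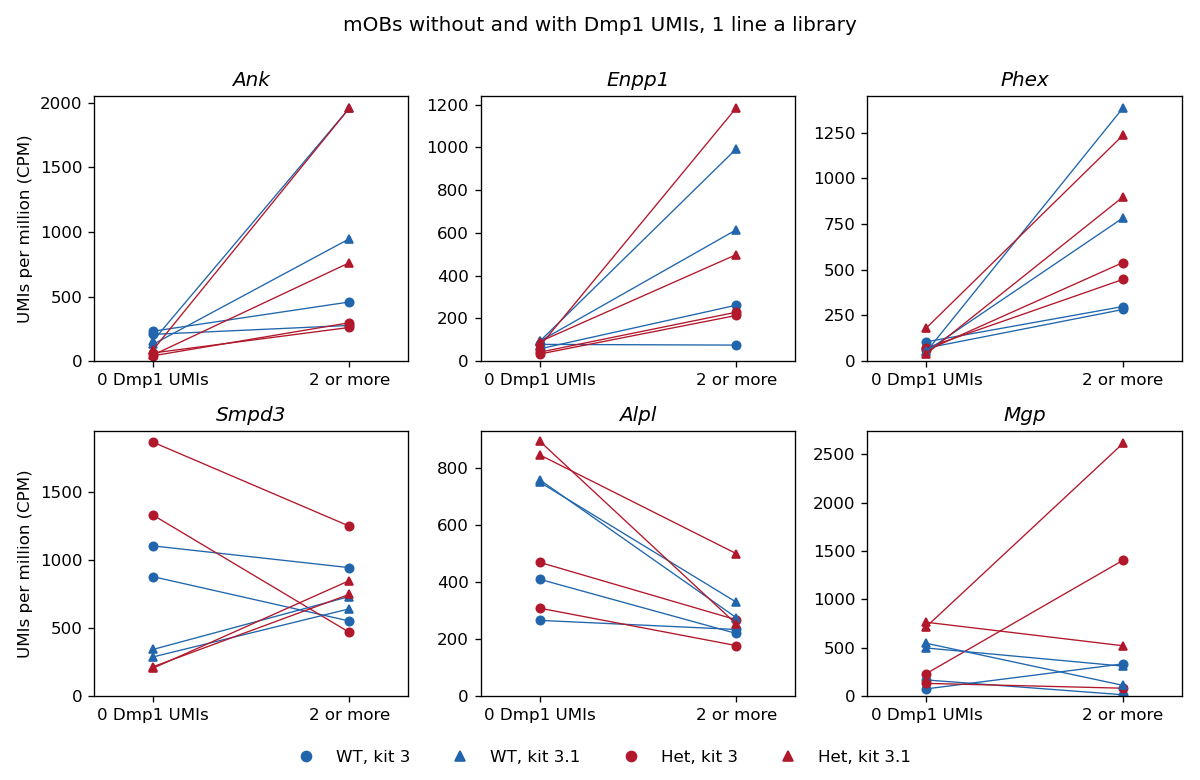
CPM (vertical axes) of 6 genes in mOBs with 0 Dmp1 UMIs and with 2 or more, 1 line a library (blue, WT; red, Het; circles, kit version 3; triangles, kit version 3.1). Ank, Enpp1 and Phex rise in all lines but that of S1 for Enpp1, Alpl falls in all 8, and Smpd3 falls with kit version 3 and rises with kit version 3.1.

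Other genes of these pathways were taken from lists. The 4 lists were counted, with no test of the lists themselves. In mOBs against eOBs, where 28.0% of all genes passed, 1 rose and 0 fell of the 4 tested of 7 genes of pyrophosphate and nucleotide phosphate, 2 rose and 1 fell of the 8 tested of 8 of matrix vesicles and lipid phosphate, 4 rose and 0 fell of the 6 tested of 11 of phosphate transport and its systemic control, and 4 rose and 1 fell of the 5 tested of 6 of the vitamin K cycle and other inhibitors. The list medians were 0.040, 0.16, 0.82 and 0.71, beside -0.027 over all genes. Of the 13 calls in these lists, 3 were lost under at least 1 alternative: Spp1 (osteopontin) under 11 of 22, Vdr (the vitamin D receptor) under 10 of 22 and Chka (choline kinase) under 7 of 21, with log2 fold changes of 0.52, 0.57 and -0.51 with all libraries. Galnt3, which glycosylates FGF23 and keeps it intact, rose by 3.94 on the log2 scale (SE 0.29), Sgms2, a sphingomyelin synthase, by 3.22 (SE 0.18) and Dmp1 by 2.78 (SE 0.60). Ggcx, the carboxylase that uses vitamin K to activate Mgp, rose by 1.297 (SE 0.24), and Vkorc1 and Vkorc1l1, which recycle vitamin K, by 1.59 and 0.71 (SE 0.21 and 0.17), and Gas6, another vitamin K-dependent protein, fell (log2 fold change -2.16, SE 0.38).

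In mOBs against dOBs, where 31.3% of all genes passed, the counts were 1 rose and 1 fell of the 4 tested of 7 (pyrophosphate), 2 rose and 0 fell of the 8 tested of 8 (matrix vesicles), 5 rose and 0 fell of the 6 tested of 11 (phosphate transport) and 3 rose and 1 fell of the 5 tested of 6 (vitamin K), and the genes of largest change were Galnt3 (3.21), Sgms2 (2.41), Dmp1 (2.04), Gas6 (-1.82), Fgfr1 (1.05) and Fam20c, the secretory kinase of bone matrix proteins (0.93, log2 fold changes). The list medians there were 0.069, 0.23, 0.99 and 0.74, beside -0.028 over all genes, and 5 of the 13 calls were lost under at least 1 alternative (Anxa5, Fam20c, Ppa1, Spp1 and Vdr). Among mOBs with Dmp1 against those without, where 10.6% of all genes passed, the counts were 1 rose and 0 fell of the 3 tested of 7, 0 rose and 1 fell of the 7 tested of 8, 5 rose and 0 fell of the 6 tested of 11 (Dmp1, which made the division, among them) and 1 rose and 1 fell of the 5 tested of 6, with list medians of 0.32, 0.084, 1.55 and 0.084, beside -0.00349 over all genes. Without Dmp1 the phosphate transport median was 1.201 (5 genes). The phosphate transport list had 4 genes higher beside Dmp1: Fam20c (2.65), Galnt3 (1.89), Vdr, the vitamin D receptor (1.201) and Fgfr1 (0.98). Spp1, the osteopontin gene, was higher as well (2.78), as was Nt5e, the ectonucleotidase CD73 (1.16), while Gas6 (-1.33) and the annexin Anxa6 (-0.37) were lower. The Gas6 call was lost without S5, S6 or S7 (adjusted p = 0.127, 0.132 and 0.0732) and under DESeq2, stricter OB selection and other Col1a1 limits. The Nt5e call was lost without S7 (adjusted p = 0.0545) and without S1 and S2 together, under stricter OB selection and with kit version and genotype in place of the library. The Anxa6 call was lost without S1, S5, S6, S7 or S8 (adjusted p = 0.0728, 0.1005, 0.127, 0.0918 and 0.07603) and under DESeq2, other Col1a1 limits, stricter OB selection, a limit of 5% mitochondrial UMIs and the omission of S1 and S2 together. In mOBs against dOBs, Fam20c did not pass in thinned cells (log2 fold change 0.33).

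OBs were next compared with Col2a1-high cells, in which the cartilage collagen Col2a1 took more than 1% of UMIs (15370 cells), and with all other cells (28379). Only 1 Col2a1-high cell had 2 or more UMIs of Col10a1, which marks hypertrophic cartilage cells, so the values do not cover that kind of cartilage cell. Of the 8 genes tested, 6 were higher and 1 was lower in OBs than in Col2a1-high cells, and 6 were higher and 2 lower than in all other cells, where 57.8% and 40.3% of all genes passed. Their median log2 fold changes were 1.79 and 2.41, beside 0.00439 and -0.027 over all genes. Alpl was at 292, 506 and 731 CPM (lowest, median and highest library) in OBs, 0.697, 5.31 and 21.1 CPM in Col2a1-high cells and 26.4, 65.5 and 108 CPM in all other cells, with no overlap of OBs with either (6.16 on the log2 scale, SE 0.39, adjusted p = 2.56e-07; 3.17 on the log2 scale, SE 0.21, adjusted p = 4.09e-06). Phex was at 91.1, 141 and 175 CPM in OBs and at most 3.398 CPM in Col2a1-high cells (6.15 on the log2 scale, SE 0.32, adjusted p = 7.63e-08), and Smpd3 at 145, 328 and 1241 CPM against 28.5, 38.2 and 42.04 CPM (3.13 on the log2 scale, SE 0.46, adjusted p = 1.48e-04).

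The pyrophosphate genes were also measured outside OBs. Ank was at 260.4 ± 99.7 CPM (SD, n = 8) in OBs, 62.5 ± 17.5 CPM (SD, n = 8) in Col2a1-high cells and 73.9 ± 49.4 CPM (SD, n = 8) in all other cells (log2 fold changes 1.96 and 2.25, SE 0.15 and 0.35). In haematopoietic-like cells Ank ran from 8.603 to 31.95 CPM with kit version 3 and from 75.3 to 106 CPM with kit version 3.1. Enpp1 was at 164 ± 42.1 CPM (SD, n = 8), 51.2 ± 14.6 CPM (SD, n = 8) and 33.7 ± 17.4 CPM (SD, n = 8) in the same order (log2 fold changes 1.61 and 2.58, SE 0.14 and 0.22). Slc20a2 was higher in OBs than in both (0.99 and 1.34, SE 0.31 and 0.30), each in 7 of 8 libraries. Against all other cells, Smpd3 and Phex were higher in OBs (log2 fold changes 5.16 and 5.48, SE 0.30 and 0.36) and Mgp was lower (-1.97, SE 0.21). Slc20a1 was lower in OBs than in all other cells in 8 of 8 libraries (-0.80 on the log2 scale, SE 0.21, adjusted p = 0.0129) and did not pass against Col2a1-high cells (0.087 on the log2 scale, SE 0.17, adjusted p = 0.6905). Its mean was 36.9 ± 8.46 CPM (SD, n = 8) in endothelial-like cells and 6.32 ± 5.95 CPM (SD, n = 8) in mOBs.

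Mgp was the 1 gene of the 8 tested that was lower in OBs than in Col2a1-high cells, with 11823, 15360.3 and 22848 CPM (lowest, median and highest library) against 214, 1001 and 2013 CPM in OBs (-4.21 on the log2 scale, SE 0.47, adjusted p = 1.76e-05). Pericyte or smooth muscle-like cells had 8360.4 ± 1779 CPM (SD, n = 8), and endothelial-like cells 699.9 ± 300.3 CPM (SD, n = 8). In Col2a1-high cells the kits did not overlap, at 17827 to 22848 CPM with kit version 3 and 11823 to 12893 CPM with kit version 3.1. Of the pathway genes, Dmp1 and Spp1 differed most between OBs and Col2a1-high cells (6.88 and 6.72 on the log2 scale), followed by Galnt3 (5.705), Sgms2 (3.17), Vdr (2.85) and Gas6 (2.21). Against all other cells they were Dmp1 (5.58), Spp1 (4.61), Entpd1, an ectonucleotidase of blood and endothelial cells (-4.18), Vdr (3.79), Galnt3 (3.78) and Sgms2 (3.58). Counts over the 4 lists, in the order given above and beside the 57.8% and 40.3% of all genes that passed, were 2 rose and 1 fell of the 6 tested of 7, 3 rose and 1 fell of the 8 tested of 8, 4 rose and 2 fell of the 6 tested of 11 and 3 rose and 1 fell of the 5 tested of 6 against Col2a1-high cells, and 1 rose and 2 fell of the 6 tested of 7, 4 rose and 0 fell of the 8 tested of 8, 4 rose and 1 fell of the 6 tested of 11 and 4 rose and 0 fell of the 5 tested of 6 against all other cells. The list medians were 0.031, 0.19, 1.72 and 0.48 in the first and -0.34, 0.25, 2.59 and 1.27 in the second, beside 0.00439 and -0.027 over all genes. Of the 17 list calls against Col2a1-high cells, 3 were lost under at least 1 alternative (Fam20c under 8 of 21, Phospho2 under 4 of 20 and Anxa2 under 2 of 21), and of the 16 against all other cells 2 were (Anxa6 under 10 of 21 and Smpd1 under 1 of 21).

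**Figure D4:**
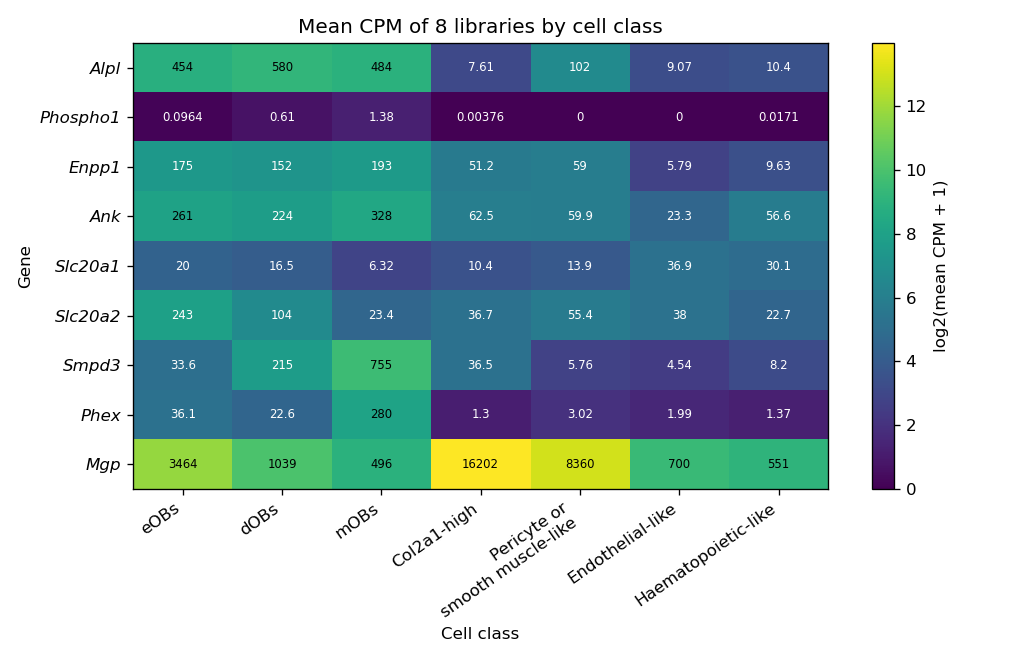
Mean CPM over 8 libraries (numbers in the cells; colour, log2 of the mean CPM plus 1) of the 9 genes (rows) in 7 cell classes (columns). Mgp peaks in Col2a1-high and pericyte or smooth muscle-like cells, Alpl, Smpd3 and Phex in OBs, and Phospho1 stays at or under 1.38 CPM everywhere shown.

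Over 48 points (8 libraries by 6 cell classes, which share libraries and depth) and 8957 genes with at least 20 CPM in a class, the patterns closest to each gene by Pearson correlation of log2(CPM + 1) are given as a description. Closest to Alpl were Dpysl3, Tnfrsf19 and Sp7 (r = 0.961, 0.961, 0.959), where Sp7 had served to select the OBs. Closest to Smpd3 were Cgref1, Slc13a5 and Fam46a (r = 0.943, 0.940, 0.914), and closest to Phex Enpp6, Ptprz1 and Bmp8a (r = 0.934, 0.931, 0.925). For Enpp1 they were Srpx2, Shf and Vdr (r = 0.940, 0.931, 0.929), and for Ank Nab2, Enpp1 and Gja1 (r = 0.864, 0.855, 0.850), Enpp1 being the second closest to Ank. For Slc20a2 they were Pros1, Kcnk2 and Esr1 (r = 0.876, 0.861, 0.847), for Slc20a1 Cep57, Ago2 and Rbbp4 (r = 0.866, 0.831, 0.819) and for Mgp Rflna, Arsi and Dlk1 (r = 0.965, 0.964, 0.958).

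The second question was whether the G610C mutation changes these genes. In the comparisons of Het with WT libraries, 0 of the 7 or 8 genes tested passed in mOBs, dOBs, eOBs, Col2a1-high cells or all other cells (edgeR quasi-likelihood test with kit version in the model), where 0.530%, 0.0101%, 0%, 0.0913% and 0% of all genes passed. In eOBs and all other cells, where no gene passed, 310 and 3725 genes had an unadjusted p under 0.05 and DESeq2 called 3 and 1545. The median log2 fold changes of the tested genes were 0.14, 0.048, 0.052, -0.11 and 0.14 in that order, beside 0.012, -0.00473, -0.000663, 0.012 and 0.029 over all genes.

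Ank, the pyrophosphate exporter, was lower on average in Het OBs of every stage, and in none of them did it pass. In mOBs it was at 245, 368, 383 and 600.3 CPM in the WT libraries S1, S2, S5 and S6 and 143, 145, 461 and 278 CPM in the Het libraries S3, S4, S7 and S8. The groups overlapped, since S1 lay below S7 and S8 (-0.80 on the log2 scale, SE 0.21, adjusted p = 0.138). In dOBs it was at 407, 304, 186 and 284 CPM in the WT libraries S1, S2, S5 and S6 and 82.7, 152, 158 and 216 CPM in the Het libraries S3, S4, S7 and S8 (-0.94 on the log2 scale, SE 0.26, adjusted p = 0.579), and in eOBs the log2 fold change was -0.75 (SE 0.31). Over 24 alternatives the dOB value ran from -1.61 to -0.38, and 3 passed. The eOB value ran from -1.57 to -0.20, and 1 of 24 passed. All 27 alternatives kept the direction in mOBs, with log2 fold changes of -1.54 to -0.35, and 7 of them passed, among them DESeq2 (adjusted p = 0.0417) and leaving out S5 or S7 (edgeR adjusted p = 0.0425 and 0.0234). Within kit version 3 the difference was -1.17 (log2 scale, SE 0.19, edgeR adjusted p = 0.00517, where 5.26% of all genes passed), and within kit version 3.1 it was -0.45 (SE 0.25, edgeR adjusted p = 0.832), the value without S1 and S2, which are the WT libraries of kit version 3. The haematopoietic markers summed to 671 and 488 CPM in mOBs of S1 and S2 and 1.504 to 164 CPM in the 6 others. The 5 OB genes not used in the selection did not overlap between genotypes in mOBs, at 6180.4 to 18389.9 CPM in WT and 1691 to 5438 CPM in Het. The part of either in the Ank difference was not tested.

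Because Ank rose with Dmp1, Het and WT were also compared within each kind of mOB, a choice made after these values were seen. In mOBs without Dmp1, Ank was at 207, 231, 129 and 155 CPM in the WT libraries S1, S2, S5 and S6. It was at 41.1, 62.8, 85.3 and 46.7 CPM in the Het libraries S3, S4, S7 and S8. Every Het library was below every WT library, and the share of all genes that separate in this way was not counted. In the same cells the haematopoietic markers summed to 138 and 238 CPM in S1 and S2 and 2.46 to 203 CPM in the 6 others. The 5 OB genes not used in the selection stood there at 13529.5, 17749, 2537 and 2492 CPM in S1, S2, S5 and S6. In S3, S4, S7 and S8 they stood at 4369, 4543, 696 and 1854 CPM. They were lower in Het than in WT libraries within each kit, but S3 and S4 lay above S5 and S6, unlike for Ank. Their part in the Ank difference was not tested. The difference was -1.54 on the log2 scale (SE 0.23, edgeR adjusted p = 0.0188 over 8509 genes), and Ank was the 1 gene of the 7 tested that passed, where 0.212% of all genes did. In mOBs with Dmp1, Ank was at 276, 458, 947 and 1959 CPM in the WT libraries S1, S2, S5 and S6 and 297, 261, 1959 and 762 CPM in the Het libraries S3, S4, S7 and S8, and the groups overlapped (log2 fold change -0.35, SE 0.28, edgeR adjusted p = 0.728), where 0.868% of all genes passed and 0 of the 7. Whether the genotype difference itself differs between the cells with and without Dmp1 was not tested. With all OBs summed it was -0.90 (SE 0.20) and did not pass (edgeR adjusted p = 0.393, where 0.00850% of all genes passed). The share of mOBs with Dmp1 was 38.4, 49.4, 20.4 and 19.2% in S1, S2, S5 and S6 against 34.2, 35.4, 20 and 28.6% in S3, S4, S7 and S8, and its part in the difference over all mOBs was not tested.

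Enpp1, its partner in pyrophosphate supply, gave log2 fold changes of -0.45, -0.79 and -0.16 in eOBs, dOBs and mOBs (SE 0.26, 0.29 and 0.20), none of which passed. In dOBs it was at 322, 216, 112 and 144 CPM in the WT libraries S1, S2, S5 and S6 and 61.6, 114, 138 and 105 CPM in the Het libraries S3, S4, S7 and S8, so that the gap lay in kit version 3 (log2 fold change -1.64, edgeR adjusted p = 0.0327, where 0.595% of all genes passed) and was -0.078 in kit version 3.1 (edgeR adjusted p = 0.929). The WT libraries of kit version 3 are S1 and S2, and the haematopoietic markers summed to 560.3 CPM in dOBs of S1, 72.7 CPM in S2 and 10.9 to 104 CPM in the 6 others. Their part in the Enpp1 gap was not tested. Alpl, the enzyme that removes pyrophosphate, gave -0.053, 0.086 and 0.19 in the 3 stages (SE 0.35, 0.16 and 0.13). In eOBs the kits went opposite ways, with -0.88 within kit version 3 (edgeR adjusted p = 0.0463, the share of all genes being given below) and 0.70 within kit version 3.1. Of 24 alternatives there, 1 passed. In mOBs Alpl was at 285, 252, 613 and 633 CPM in the WT libraries S1, S2, S5 and S6 and 262, 391, 775 and 659 CPM in the Het libraries S3, S4, S7 and S8, and the gap between the kits was larger than that between genotypes.

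Slc20a2 was lower on average in Het OBs of each stage, with log2 fold changes of -0.73, -0.54 and -0.77 (SE 0.50, 0.42 and 0.27), and none passed. Over 24 alternatives the eOB value ran from -2.13 to 0.33, and 2 passed. The dOB value ran from -1.51 to 0.13, and 1 of 24 passed. In mOBs Slc20a2 was at 25.2, 24.6, 29.2 and 36.8 CPM in the WT libraries S1, S2, S5 and S6 and 10.7, 7.0, 34.3 and 19.6 CPM in the Het libraries S3, S4, S7 and S8, near the level of haematopoietic-like cells noted above. Within kit versions 3 and 3.1 the log2 fold changes in mOBs were -1.65 and -0.23 (edgeR adjusted p = 0.00997 and 0.929), S1 and S2 again being the WT libraries of kit version 3. It passed without S7 (log2 fold change -1.36, edgeR adjusted p = 0.0266). Smpd3 gave 1.02, 0.89 and 0.18 (SE 0.77, 0.41 and 0.19), and the eOB value turned to -0.52 without S4. In dOBs it was at 93.5, 286, 61.7 and 34.5 CPM in the WT libraries S1, S2, S5 and S6 and 600.1, 533, 35.6 and 74.5 CPM in the Het libraries S3, S4, S7 and S8, where the 2 highest values were the Het libraries of kit version 3. The term for a difference of the genotype effect between mOBs and dOBs passed for 0 of the 8 genes tested, where 0% of all genes did (488 genes had an unadjusted p under 0.05 and DESeq2 called 3), and it was -0.88 for Smpd3 (SE 0.55) and 0.16 for Ank (SE 0.35).

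Phex was at 189.6, 219, 265 and 367 CPM in the WT libraries S1, S2, S5 and S6 and 239, 223, 209 and 528 CPM in the Het libraries S3, S4, S7 and S8 in mOBs and did not pass (0.14 on the log2 scale, SE 0.24, adjusted p = 0.898). In eOBs it was at 20.05, 28.03, 13.3 and 8.59 CPM in the WT libraries S1, S2, S5 and S6 and 4.14, 39.2, 61.7 and 114 CPM in the Het libraries S3, S4, S7 and S8, from 1 to 69 UMIs per library (log2 fold change 1.74, SE 0.56, edgeR adjusted p = 0.9999). Mgp gave the largest value in mOBs, at 69.6, 217, 439 and 429 CPM in the WT libraries S1, S2, S5 and S6 and 673, 155, 693 and 1291 CPM in the Het libraries S3, S4, S7 and S8 (1.303 on the log2 scale, SE 0.42, adjusted p = 0.227). The Col2a1 level in the same mOBs was 8.399, 158, 501 and 468 CPM in the WT libraries and 332, 109, 722 and 1538 CPM in the Het libraries, and Mgp in haematopoietic-like cells was 133, 45.7, 709 and 361 CPM and 1191, 295, 749 and 923 CPM, in the order of libraries above. The 8 pericyte or smooth muscle markers summed to 75.6 to 226 CPM in mOBs of WT libraries, where Myh11 was at 0. They summed to 226 to 453 CPM in mOBs of Het libraries. The part of these levels in the Mgp difference was not tested. In mOBs without and with Dmp1, Mgp gave log2 fold changes of 0.51 and 2.41 (SE 0.20 and 0.80), and neither passed. In all other cells Mgp gave a log2 fold change of 1.53 (SE 0.36) and did not pass in edgeR (adjusted p = 0.157), while DESeq2 called it (adjusted p = 9.88e-04) with 10.1% of all genes. S1 and S2, whose other cells were rich in haematopoietic markers, held the lowest values (1040.1 and 595 CPM), and in Col2a1-high cells, where it was highest, the log2 fold change was -0.15 (SE 0.061).

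Slc20a1 was tested in eOBs and dOBs only among the stages (log2 fold changes 0.16 and 0.20, SE 0.32 and 0.28), and Phospho1 in none. Without the filter on low counts Slc20a1 passed in mOBs (log2 fold change 1.18, edgeR adjusted p = 0.0158, where 2.91% of all genes passed), and Phospho1 in no comparison of Het with WT. With the filter on, Slc20a1 in mOBs was tested under 8 alternatives and passed in none (log2 fold changes 0.42 to 1.49, edgeR adjusted p from 0.144 to 0.759): without S1, S2, S3, S5 or S8, within kit version 3.1, under looser OB selection and with all OBs together. In Col2a1-high cells the log2 fold changes ran from -1.07 (Alpl) to 0.13 (Slc20a2). The Alpl value was -0.10 without S5, -0.12 with DESeq2, 1.72 within kit version 3 and -1.64 within kit version 3.1. In all other cells the values ran from -0.41 (Slc20a1) to 1.53 (Mgp). In dOBs Phex and Mgp gave 0.00896 and 0.57 (SE 0.38 and 0.38), and in eOBs Mgp gave 0.88 (SE 0.64). Over 24 alternatives the eOB value of Mgp ran from -0.78 to 2.54, and 2 passed. Of the pathway lists, 1 gene passed in any of these comparisons: Vdr fell in Het mOBs (log2 fold change -1.09, SE 0.12, edgeR adjusted p = 0.00147), and it was also among the genes closest in pattern to Enpp1. In the same mOBs the 5 OB genes not used in the selection were lower in Het libraries without overlap, as given above. Their part in the Vdr difference was not tested. Vdr passed with each library left out in turn (log2 fold changes -1.18 to -0.99). It passed within kit version 3 (-1.13, WT libraries S1 and S2) and not within kit version 3.1 (-1.07, edgeR adjusted p = 0.263). The call was also lost under 3 other alternatives, with log2 fold changes of -1.09 to -0.87, which were the kit left out of the model, the mOBs with Dmp1 alone and all OBs together. Of the list genes, 23 were tested in mOBs, 23 in dOBs, 20 in eOBs and 26 both in Col2a1-high cells and in all other cells. The list medians in mOBs were 0.44, 0.16, 0.15 and -0.32, beside 0.012 over all genes.

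**Figure D5:**
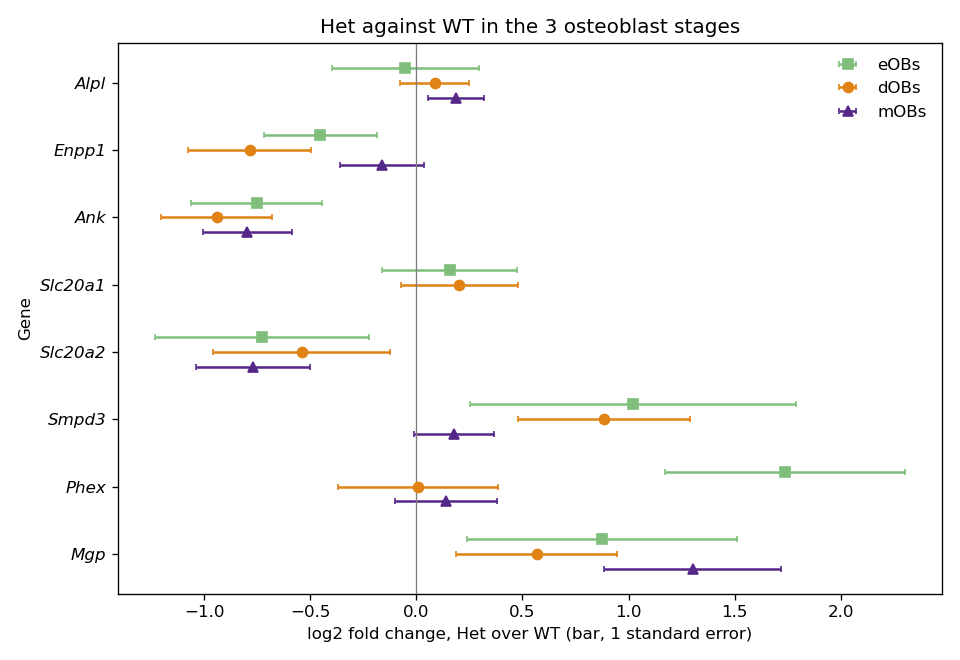
log2 fold change of Het over WT (horizontal axis; bars, 1 standard error of the edgeR fit) of 8 genes (rows) in eOBs (green squares), dOBs (orange circles) and mOBs (purple triangles). Ank lies below 0 in all 3 stages (-0.75, -0.94 and -0.80), and none of the points passed the test.

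At the level of single cells thinned to 2000 UMIs, with shallower cells left out as above and 4034 of 15370 Col2a1-high cells among them (3700 of these from WT libraries), 33.04% ± 9.01 of mOBs, 25.9% ± 5.92 of dOBs and 36.05% ± 10.7 of eOBs held a UMI of at least 3 of the 9 genes (SD, n = 8 libraries). In Col2a1-high cells the share was 5.27% ± 2.11, and in haematopoietic-like cells 1.06% ± 0.757. Mgp counted among the 9, with a UMI in 66.9%, 54.4% and 41.1% of thinned eOBs, dOBs and mOBs. It had one in 99.6% of Col2a1-high and 37.5% of haematopoietic-like cells. Shares for other sets of genes were not counted. Alpl was found in 48.7%, 57.02% and 51.4% of thinned eOBs, dOBs and mOBs, Ank in 27.6%, 23.8% and 31.03%, and Enpp1 in 25.9%, 20.99% and 19.3%, beside 1.87%, 7.55% and 1.81% of haematopoietic-like cells.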

How the data were processed

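Raw UMI counts per gene and cell were deposited by the authors as 10x matrices for 8 libraries, made with Cell Ranger 5.0.0 (kit version 3) or 6.0.1 (kit version 3.1) per the file headers, on build mm10 per the labels, and were not normalized. Kit and software version changed together and cannot be told apart. Barcodes needed 500 genes or more and less than 10% of UMIs from mitochondrial genes, the limits of the study, which kept 46420 of 68625. To be an OB a cell needed 10 or more Col1a1 UMIs, and 2 of the genes Runx2, Sp7 and Ibsp with 2 or more UMIs apiece. This rule was rebuilt, so cell numbers can differ from those of the study. Col2a1-high cells were non-OBs with Col2a1 above 1% of UMIs. Other classes are named "like" from at least 3 detected markers of their own and under 3 of each other class, and fibroblast-like cells, under 10 in 2 libraries, were left out. Doublets were kept, and as alternatives OBs with markers of other cells, with high Col2a1 or among the deepest 5% of cells were left out.

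Counts were summed per library and class (at least 10 cells) and tested with edgeR 4.0.16 (limma 3.58.1, R 4.3.3): filterByExpr, TMM and the quasi-likelihood test. The model held genotype beside kit version for Het against WT, and the library as a block between classes. Benjamini-Hochberg adjustment ran over all genes tested, and 0.05 was the limit. A standard error is the absolute log2 fold change over the square root of F. Alternatives were DESeq2 1.42.0 and its size factors, no filter on low counts, other OB, Col1a1 and mitochondrial limits, cells thinned to 2000 UMIs (shallower cells left out), each kit alone, no kit term, the replicate block and each library left out. The pipeline was tested on simulated counts. Libraries pool several animals, and p-values measure the spread between libraries. Replicates differed beyond counting noise, so none was merged. Intervals and floors cover counting error only.

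Named were all 9 genes (in some comparisons as a range), pathway genes that passed (up to 6 per comparison by size of change) and the 3 closest patterns per gene. Anxa6 and Fgfr1 among mOBs with Dmp1, Vkorc1l1 and list genes whose calls were lost under an alternative were named beyond this rule, after their values were seen. A gene of the osteoblast marker list is not reported here. The 9 genes, lists and tests were chosen with earlier results of these data known. Of 31053 gene identifiers, 30934 were in GENCODE M21 (GRCm38).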

Additional observations from a re-analysis of the deposited data

Results flagged for a closer look

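Among 88 groups of 4 libraries (9 genes, 5 cell classes, WT or Het, where values differed), 7 had 1 library far from the other 3 by Dixon's criterion, and chance marks about 1 in 20. Phex in Het mOBs was at 528 CPM in S8 against 209 to 239 CPM in the other 3 Het libraries, on 351 UMIs from 42 cells, the fewest mOBs of any library. Smpd3 in Het eOBs was at 167 CPM in S4 against 8.36 to 14.3 CPM in the other 3 Het libraries, on 34 UMIs from 23 cells. Alpl in Het Col2a1-high cells was at 12.2 CPM in S3 against 4.27 to 5.501 CPM in the other 3 Het libraries. Phex in Het Col2a1-high cells was at 0.333 CPM in S4 against 1.604 to 1.71 CPM in the other 3 Het libraries, on 2 UMIs. Phospho1 was marked in 3 WT groups where 1 library had 1 UMI and the others 0: S1 in eOBs (0.771 CPM), S5 in dOBs (0.159 CPM) and S6 in Col2a1-high cells (0.0301 CPM).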

How the results depend on the processing

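The number of the 9 genes that passed, 0 in each comparison of Het with WT, 6 in mOBs against eOBs and 5 in mOBs against dOBs, changed by more than 1.5 times, or from 0, under these settings, with a class named alone standing for Het against WT and, after it, the share of all genes with an adjusted p that passed under the same setting. DESeq2: 1 (mOBs, 1.38%) and 1 (all other cells, 10.1%). No filter on low counts: 4 (mOBs, 2.91%), 5 (dOBs, 1.39%), 4 (eOBs, 0.795%) and 1 (the genotype by stage term, 0.447%). Under 5% mitochondrial UMIs: 1 (mOBs, 0.637%). Kit version 3 alone: 2 (mOBs, 5.26%), 2 (dOBs, 0.595%), 3 (eOBs, 5.81%) and 2 (all other cells, 31.4%). mOBs without Dmp1: 1 (mOBs, 0.212%). Deepest 5% of cells left out: 1 (dOBs, 0.0887%). Thinned to 2000 UMIs: 3 (mOBs vs eOBs, 24.4%) and 3 (mOBs vs dOBs, 20.8%). With no filter the genes were Ank, Slc20a1, Slc20a2 and Mgp (mOBs), Enpp1, Ank, Slc20a2, Smpd3 and Mgp (dOBs), Ank, Slc20a2, Phex and Mgp (eOBs) and Smpd3 (the term). Smaller changes came under other alternatives, since the number ran from 3 to 8 in mOBs against eOBs and from 3 to 7 in mOBs against dOBs, with calls of Ank and Slc20a1 lost and of Alpl and Enpp1 gained in the first, and of Ank and Enpp1 lost and of Alpl, Slc20a1 and Mgp gained in the second. In thinned cells Slc20a1 and Slc20a2 were too low to be tested in either.

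Of the values that passed in the analyses reported, only that of the list gene Anxa5 in mOBs against dOBs changed sign under an alternative run. The log2 fold changes that took the other sign were these. With kit version 3.1 alone: Smpd3 -0.13 (mOBs), Slc20a2 0.13 (dOBs), Alpl 0.70, Enpp1 0.066, Slc20a2 0.33, Smpd3 -0.66, Mgp -0.78 (eOBs), Ank 0.17 (Col2a1-high cells), Alpl -0.76, Slc20a1 0.20, Smpd3 -0.23, Phex -0.54 (all other cells). With only mOBs with Dmp1: Enpp1 0.12 (mOBs). With stricter OB selection: Phex -0.014 (mOBs), Alpl 0.52, Slc20a2 0.11, Mgp -0.71 (eOBs), Phex -0.054 (the genotype by stage term), Alpl -0.066 (mOBs vs dOBs). With deepest 5% of cells left out: Enpp1 0.063 (mOBs), Phex -0.16 (dOBs), Alpl 0.15 (eOBs). With DESeq2: Phex -0.37 (dOBs), Enpp1 -0.017, Phex 0.019 (Col2a1-high cells), Slc20a2 -0.00526 (all other cells). With no filter on low counts: Phex -0.021 (dOBs). With kit version not in the model: Phex -0.28 (dOBs), Enpp1 -0.023 (Col2a1-high cells). With kit version 3 alone: Alpl -0.22, Slc20a1 -0.088, Phex -1.89 (dOBs), Alpl 1.72, Enpp1 -0.10 (Col2a1-high cells), Enpp1 0.17, Slc20a2 -0.00769 (all other cells). With looser OB selection: Alpl -0.094, Phex -0.44 (dOBs), Mgp -0.11 (mOBs with Dmp1 vs without). With OBs with markers of other cells left out: Phex -0.16 (dOBs), Alpl 0.21 (eOBs), Alpl -0.00532 (mOBs vs dOBs), Slc20a1 -0.00462 (OBs vs Col2a1-high cells). With OBs with high Col2a1 left out: Phex -0.14 (dOBs), Alpl -0.012 (mOBs vs dOBs), Mgp -0.086 (mOBs with Dmp1 vs without). With under 5% mitochondrial UMIs: Alpl 0.13 (eOBs), Alpl -0.031, Ank -0.37, Phex -0.00808 (the genotype by stage term). With thinned to 2000 UMIs: Alpl 0.13 (eOBs), Ank 0.20 (Col2a1-high cells), Phex -0.46 (the genotype by stage term), Enpp1 -0.062 (mOBs vs eOBs). With other Col1a1 limits: Alpl 0.60, Enpp1 0.062, Slc20a1 -0.45, Smpd3 -0.48 (eOBs), Ank -0.22, Phex -0.39 (the genotype by stage term), Alpl -0.20, Anxa5 -0.00271 (mOBs vs dOBs). With DESeq2 size factors in edgeR: Slc20a2 -0.00574 (all other cells).

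Leaving out 1 library at a time moved the number passing in mOBs (Het against WT) from 0 to 2 (Ank without S5, where 0.581% of all genes passed, and Ank and Slc20a2 without S7, where 1.73% did), and these log2 fold changes across 0: mOBs, Enpp1 -0.35 to 0.075, Smpd3 -0.035 to 0.27, Phex -0.23 to 0.37. dOBs, Alpl -0.014 to 0.26, Phex -0.48 to 0.51, Slc20a1 -0.036 to 0.38. eOBs, Alpl -0.40 to 0.21, Smpd3 -0.52 to 1.35. Col2a1-high cells, Ank -0.16 to 0.061, Enpp1 -0.068 to 0.082, Phex -0.70 to 0.19, Slc20a1 -0.29 to 0.046. All other cells, Alpl -0.19 to 0.39, Slc20a2 -0.098 to 0.14, Phex -0.19 to 1.09. The genotype by stage term, Alpl -0.091 to 0.24, Ank -0.15 to 0.38, Phex -0.23 to 0.89, Mgp -0.12 to 1.01, Slc20a2 -0.65 to 0.00944, Slc20a1 -0.40 to 0.98. mOBs vs dOBs, Alpl -0.055 to 0.11. OBs vs Col2a1-high cells, Slc20a1 -0.057 to 0.23. mOBs with Dmp1 vs without, Mgp -0.28 to 0.46.

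Over all genes, Het against WT called 51 in mOBs, 1 in dOBs, 0 in eOBs, 13 in Col2a1-high cells and 0 in all other cells, and over the alternatives 0 to 536, 0 to 269, 0 to 258, 0 to 73 and 0 to 4850. The genotype by stage term called 0 (0 to 91). Between classes the counts were 2581 (575 to 3536) for mOBs against eOBs, 3029 (615 to 3802) for mOBs against dOBs, 7048 (3685 to 8317) and 5694 (3176 to 6484) for OBs against Col2a1-high and all other cells, and 780 (148 to 1435) for mOBs with Dmp1 against without. The lowest class counts came from thinned cells, and the cause of the other changes was not tested. The settings on Dmp1 within genotype, on all OBs together and without S1 and S2 were chosen after seeing the data.

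The label numbers that WT and Het share within a kit did not pair the libraries: deviations from the group means of same-numbered libraries correlated at -0.043 (mOBs, kit version 3), -0.027 (mOBs, kit version 3.1), -0.13 (dOBs, kit version 3), 0.076 (dOBs, kit version 3.1), 0.011 (Col2a1-high cells, kit version 3), 0.13 (Col2a1-high cells, kit version 3.1). With the replicate block, Het against WT called 26 genes in mOBs and 0 in dOBs, and Ank in mOBs had a log2 fold change of -0.79. With it, 0 of the 9 genes passed in mOBs, dOBs or eOBs. The planned comparison of Col2a1-high cells with and without Col10a1 could not be fitted, since 1 such cell had at least 2 Col10a1 UMIs.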
